A study of Rattus norvegicus with 12 samples.

Results

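The machinery for the inhibitory transmitter GABA was examined through 5 genes that cover its steps: Gad1 and Gad2 (synthesis), Slc32a1 (packaging), Slc6a11 (uptake) and Abat (breakdown). They were chosen by name as probes with exactly 1 gene symbol, and all 5 were found, each with 1 probe, among the 18166 genes measured. Tissue came from the inferior colliculus (IC), the auditory centre of the midbrain, of SD strain rats. The 12 arrays form 4 groups of 3: both sides of control rats, which had a sham operation with an incision behind the ear and no drilling of the bulla, and both sides of single-sided deaf rats, whose right cochlea was ablated. Per the labels each arm had 20 rats and tissue was taken 2 weeks after surgery. The labels leave the rats' age and sex open, and also whether RNA was pooled before hybridisation, so a p-value measures only how far these arrays scatter, and that scatter may be technical.

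GABA is made from glutamate in a single step by glutamate decarboxylase, which exists as 2 enzymes, GAD67 from Gad1 and GAD65 from Gad2. The vesicular transporter from Slc32a1 loads GABA, and also glycine, into synaptic vesicles, plasma membrane transporters such as GAT-3 from Slc6a11 take released GABA up, mainly into astrocytes, and the mitochondrial transaminase from Abat begins its breakdown. A large minority of IC neurons are GABAergic, and because the ascending pathway crosses, the left IC is driven mainly by the ear that was ablated here and the right IC mainly by the intact ear.

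The pair of synthesis genes makes one product from separate loci, on chromosomes 3 (Gad1, Entrez 24379) and 17 (Gad2, Entrez 24380). In the left IC the deaf arrays lay below the controls for Gad1 and overlapped them for Gad2, and neither difference passed the test, as the values that follow show. As a description of the loci, the 58 bases just before the first annotated start of each gene are given. They are from RefSeq in build GRCr8, on the plus strand, 5′ to 3′, at chr3:75777202-75777259 for Gad1 and chr17:89671660-89671717 for Gad2. Capitals mark a match to TATAAA, the core of a TATA box, searched on both strands.
Gad1: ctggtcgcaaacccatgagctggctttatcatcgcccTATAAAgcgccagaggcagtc
Gad2: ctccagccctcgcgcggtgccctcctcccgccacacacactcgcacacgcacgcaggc
The Gad1 stretch holds 1 match, which begins 21 bases before the start, and has a GC content of 55.2%. The Gad2 stretch holds 0 matches and has a GC content of 74.1%. RefSeq start windows of 300 bases were at hand for 4 of the 5 genes (Slc32a1 and Slc6a11 besides this pair), and 1 of the 4 holds the motif, against 14.2% of 33469 such windows. The Gad1 window is laid around a later annotated start, so the motif lies 213 bases before that start, whereas the windows of the other 3 genes are laid around their first annotated start. The match is a description of the sequence, and nothing measured here bears on its use.

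Values are log2 intensities. A difference of 1 is a 2-fold change, and levels of different probes are not compared with each other. All 5 genes lay above 6.94, the upper quartile of all values, on every array. Over the 12 arrays Gad1 ran from 9.82 to 10.35, Gad2 from 9.61 to 9.83, Slc32a1 from 7.79 to 8.26, Slc6a11 from 10.89 to 11.10 and Abat from 9.25 to 9.44. The tissue label was checked on marker genes, because hippocampus, not IC, stands in the series title and in the description of each sample. Of 11 measured midbrain tectum markers 9 had a mean above the overall median of 5.34, and so did 5 of 10 forebrain and hippocampus markers, so the lists do not separate cleanly. The midbrain genes Tfap2d (9.39 to 9.79) and Tcf7l2 (10.10 to 10.44) were bright on all 12 arrays, while Pax7 (4.77 to 5.69) and Pou4f1 (4.80 to 5.64) were dim. Among the forebrain genes Emx1 (4.20 to 5.02), Tbr1 (4.09 to 4.82) and Neurod6 (2.92 to 4.08) lay below the median, while Bcl11b (6.95 to 7.29) and Nrgn, whose highest array was at 11.43, lay above it on all arrays. Right control 3 stood apart from the other arrays: it lay farthest out on the first principal component, at 27.3, and its 15 measured cerebellar markers were on average 0.54 above their own means.

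**Figure D1:**
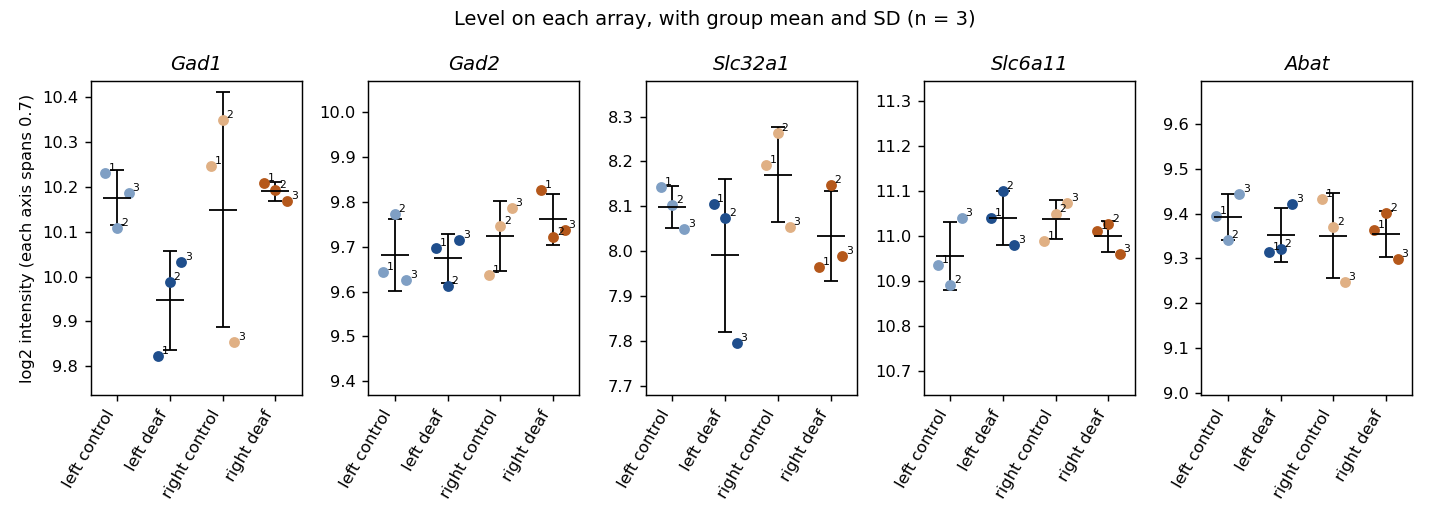
Log2 intensity of Gad1, Gad2, Slc32a1, Slc6a11 and Abat on each of the 12 arrays (points, numbered by replicate), with group means and SD (black bars, n = 3). Every axis spans 0.7, so the heights can be compared. The 3 left deaf arrays of Gad1 lie below the 3 left control arrays, right control 3 lies as low as they do, and the groups of the other genes overlap between deaf and control on both sides.

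Gad1 was the gene of this set with the largest deaf to control difference, and it was lower in the left IC. The left control arrays were at 10.23, 10.11 and 10.19 and the left deaf arrays at 9.82, 9.99 and 10.03. All 3 deaf arrays therefore lay below all 3 controls. The means were 10.18 ± 0.061 (SD, n = 3) and 9.95 ± 0.11, a difference of -0.23 (SE 0.12), or 0.854-fold with a 95% interval of 0.715 to 1.02. It did not pass the test (limma adjusted p = 1.00 over 18166 genes, unadjusted p = 0.0754), and 10.5% of all genes differed by more in this comparison.

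In the right IC, Gad1 was at 10.25, 10.35 and 9.85 on the control arrays and at 10.21, 10.19 and 10.17 on the deaf arrays. The deaf arrays lay close together, and they lay inside the range of the controls, of which replicate 3 was far below its partners. The means were 10.15 ± 0.26 and 10.19 ± 0.021, a difference of 0.040 (SE 0.12; limma adjusted p = 1.00), or 1.03-fold with an interval of 0.861 to 1.23. Without right control 3 the difference was -0.11. Whether that array's cerebellar marker level has a part in its Gad1 value was not tested.

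The order of the 4 group means of Gad1 was right deaf, left control, right control and left deaf. No neighbours in that order differed by more than the larger of their SDs, and the gap between right control and left deaf, 0.20, lay within the SD of right control, 0.26. Within deaf rats the left IC was lower than the right IC on all arrays, by 0.24 in the mean (0.845-fold, interval 0.708 to 1.01; limma adjusted p = 1.00, unadjusted p = 0.0608). Within control rats left and right differed by 0.026 (SE 0.12), and by -0.12 without right control 3. The test of whether deafness acted differently on the sides gave -0.27 (SE 0.17; limma adjusted p = 1.00), which was -0.12 without right control 3, so the sides are not shown to differ.

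Gad2, whose product GAD65 is the form mainly found at nerve endings, differed little between any of the groups. The left control arrays were at 9.64, 9.77 and 9.63 and the left deaf arrays at 9.70, 9.61 and 9.71. These ranges overlap, and the means, 9.68 ± 0.080 and 9.67 ± 0.054 (SD, n = 3), differed by -0.0067 (SE 0.079), a ratio of 0.995 with an interval of 0.883 to 1.12. In the right IC the control arrays were at 9.64, 9.75 and 9.79 and the deaf arrays at 9.83, 9.72 and 9.74, a difference of 0.038 (SE 0.079) and a ratio of 1.03 with an interval of 0.911 to 1.16. The intervals thus reach no lower than 0.883-fold on either side. The order of the means was right deaf, right control, left control and left deaf, and no neighbours differed beyond their SDs. In deaf rats all 3 left arrays of Gad2 lay below all 3 right arrays, by 0.087 in the mean (SE 0.079; limma adjusted p = 1.00), and by 0.055 without right deaf 1.

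Slc32a1 (Entrez 83612), the vesicular GABA and glycine transporter gene, had a lower mean in deaf rats on both sides. In the left IC the controls were at 8.14, 8.10 and 8.05 and the deaf arrays at 8.10, 8.07 and 7.79. The left groups overlap, and left deaf 3 was the lowest of all 12 arrays. The difference of -0.11 (SE 0.10; limma adjusted p = 1.00) was -0.0090 without that array. In the right IC the controls were at 8.19, 8.26 and 8.05 and the deaf arrays at 7.96, 8.15 and 7.99, with overlap again. The right difference was -0.14 (SE 0.10; limma adjusted p = 1.00), and it stayed between -0.19 and -0.090 with each array left out in turn. Averaged over both sides the deaf arrays were at 0.919-fold of control, with an interval of 0.825 to 1.02 (limma adjusted p = 0.998, unadjusted p = 0.111), and the averaged log2 difference of -0.12 was -0.073 without left deaf 3. The 9 measured oligodendrocyte markers also had lower means in deaf rats, for 7 of 9 on the left (median -0.062) and 9 of 9 on the right (median -0.098), with 0 called by limma and 2 at an unadjusted p under 0.05 on each side. Their mean level was 10.08 to 10.14 in left control against 9.97 to 10.05 in left deaf arrays, and 10.13 to 10.23 in right control against at most 10.10 in right deaf arrays, so the groups did not overlap on either side. On the right this was not particular to them. The cerebellar, excitatory and microglia lists also lay lower in deaf arrays without overlap (microglia 6.73 to 6.76 in control, 6.54 to 6.72 in deaf). The choroid plexus and ependyma list lay higher without overlap (5.99 to 6.14 in control, 6.16 to 6.26 in deaf). The part of the oligodendrocyte markers in the Slc32a1 values was not tested. The order of the means was right control, left control, right deaf and left deaf, and each step in it was smaller than the larger SD of the neighbours.

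Slc6a11 (Entrez 79213) encodes the astrocytic GABA transporter GAT-3. Its left control arrays were at 10.94, 10.89 and 11.04 and its left deaf arrays at 11.04, 11.10 and 10.98. The deaf mean was 0.085 higher (SE 0.074; limma adjusted p = 1.00), with overlapping arrays and a ratio of 1.06 (interval 0.948 to 1.19), and it was 0.053 higher without left control 2. In the right IC the controls were at 10.99, 11.05 and 11.07 and the deaf arrays at 11.01, 11.03 and 10.96, a difference of -0.038 (SE 0.074), which was -0.019 without right deaf 3 and -0.062 without right control 1. The order of the means was left deaf, right control, right deaf and left control, again with no neighbours that differed beyond their SDs.

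Abat (Entrez 81632), the GABA transaminase gene, had the narrowest range of the 5 genes over the 12 arrays, 0.20. Its left control arrays were at 9.39, 9.34 and 9.44 and its left deaf arrays at 9.32, 9.32 and 9.42, a difference of -0.040 (SE 0.078; limma adjusted p = 1.00) and a ratio of 0.972 (interval 0.864 to 1.09). That difference was -0.015 without left control 3 and -0.075 without left deaf 3. The right controls were at 9.43, 9.37 and 9.25 and the right deaf arrays at 9.36, 9.40 and 9.30, a difference of 0.0041 (SE 0.078) and a ratio of 1.00 (interval 0.891 to 1.13). The groups overlapped on both sides, and right control 3 was the lowest of the 12 arrays, as it was the second lowest for Gad1. The means ran from left control down to right control over a span smaller than the largest SD, 0.094.

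**Figure D2:**
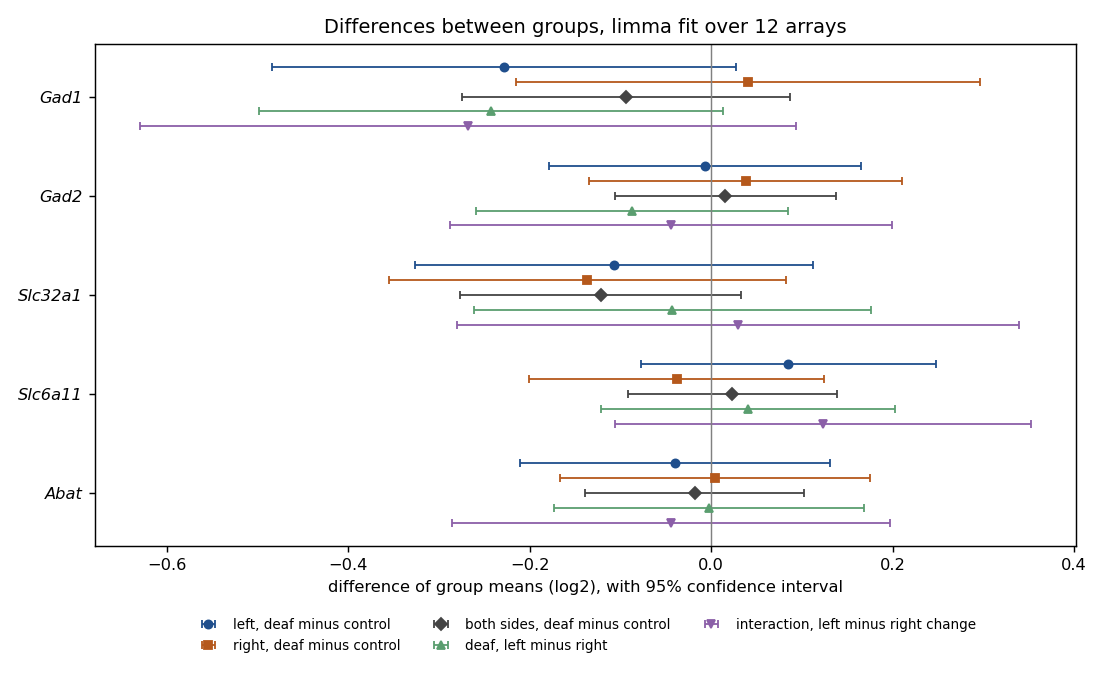
Differences of group means on the log2 scale (points) with 95% confidence intervals (bars) from the limma fit over 12 arrays, for deaf minus control in the left IC, in the right IC and averaged, for left minus right in deaf rats, and for the interaction (the left change minus the right change). Every interval includes 0. Those of Gad1 for the left IC and for left minus right in deaf rats reach only just past 0, at 0.027 and 0.013.

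In none of the 6 comparisons did a member pass the limma test. For deaf minus control, 0 of 5 were called in the left IC, in the right IC and in the average of the sides, against 0% of 18166 genes in each. Left minus right in control rats, left minus right in deaf rats and the interaction likewise called 0 of 5, again against 0% of genes. At an unadjusted p under 0.05 the members also counted 0 of 5 in each of the 6, where 3.69% of all genes on the left, 4.31% on the right and 4.53% in the average of the sides had such a p, as did 4.95% for the sides of control rats, 3.34% for the sides of deaf rats and 3.42% for the interaction. Arrays of deaf and control rats did not overlap for 1 of 5 members on the left, Gad1, against 10.3% of all genes (5.7% for the lower direction). On the right it was 0 of 5 against 7.48%, and over both sides together 0 of 5 against 0.27%. Left and right arrays did not overlap for 0 of 5 in control rats (9.8% of genes) and for 2 of 5 in deaf rats (8.31% of genes), Gad1 and Gad2, both lower on the left. With so few members these counts do not set the genes apart from the rest of the array. The median change of the 5 members was -0.040 on the left, against -0.0051 over all genes, and 0.0041 on the right, against 0.0014. For groups of this size the smallest two-sided p of an exact permutation test is 0.1.

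In a description with no test, the mean of the 5 genes' values on each array, each gene taken relative to its own mean, was -0.058, -0.035 and -0.065 on the left deaf arrays. It was 0.015, -0.011 and 0.015 on the left controls and 0.021, 0.044 and -0.023 on the right deaf arrays. The right controls were at 0.046, 0.10 and -0.050. All 3 left deaf arrays were thus lower than all left control and right deaf arrays, while right control 3 was as low as they were. The differences are a few hundredths of a log2 unit. Gad1 is part of this mean and separates the same arrays alone, so the mean is no separate observation about the set. The largest deviations on the left deaf arrays were those of Gad1 in replicates 1 (-0.29) and 2 (-0.13) and of Slc32a1 in replicate 3 (-0.28).

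The 5 genes fell into a steady and a more variable part by their range over the 12 arrays. For Gad2 the highest array exceeded the lowest by 0.21, for Slc6a11 by 0.21 and for Abat by 0.20, whereas the range was 0.47 for Slc32a1 and 0.53 for Gad1. Among the 9083 genes above the median level the median range was 0.38. Only 7.16%, 6.50% and 4.49% of those genes had a smaller range than Gad2, Slc6a11 and Abat, against 68.8% for Slc32a1 and 78.1% for Gad1. Between any pair of the 12 arrays Abat therefore differed by at most 1.14-fold, Slc6a11 and Gad2 by at most 1.16-fold, and Gad1 by up to 1.44-fold.

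**Figure D3:**
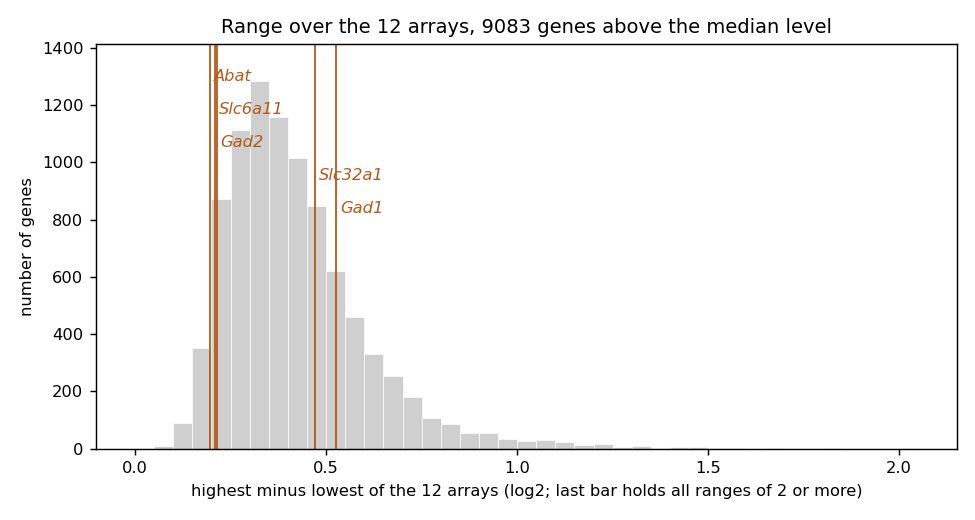
Histogram of the highest minus the lowest array (log2) for the 9083 genes above the median level, with the 5 members marked by vertical lines. Abat, Slc6a11 and Gad2 lie at the narrow end, at 0.20 to 0.21, and Slc32a1 and Gad1 lie past the middle, at 0.47 and 0.53.

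The members were next compared with each other across the 12 arrays, in 10 pairs. The highest correlation was that of Gad1 with Abat, at Pearson r = 0.61 (permutation p = 0.0345, 0.345 adjusted over the 10 pairs) and Spearman rho = 0.57 (permutation p = 0.0559, 0.490 adjusted). Without left deaf 1 and right control 3, the 2 arrays farthest from the median of Gad1, r was 0.26. With each group centred on its own mean it was 0.74. Leaving out the extreme arrays also narrows the range of Gad1, so these values do not settle how far the relation rests on them. The pair of synthesis genes was not correlated (r = -0.047, permutation p = 0.881; rho = 0.028, p = 0.938), and no adjusted p of the 10 pairs was under 0.345. The labels do not say whether left and right arrays share rats, so the arrays may not be independent.

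Gad1 was also set against the lists of neuronal, inhibitory neuron and cerebellar markers. These are among 13 relations between a gene of the pathway and a list that were chosen after the values were seen. The first list is the one described next for Gad1. It followed the mean of a list of 12 general neuronal markers, among them Snap25, Syt1, Rbfox3 and the neurofilament genes Nefl, Nefm and Nefh. Single markers need not follow Gad1, and they were not tested one by one. Syt1 was at 10.83 on left deaf 1, where Gad1 was lowest, and at 10.71 on left control 1, where Gad1 was at 10.23. For the mean of the list, r was 0.73 (permutation p = 0.00682, 0.0443 adjusted over the 13) and rho was 0.79 (permutation p = 0.00343, 0.0223 adjusted). Without right control 1 and right control 3, the arrays farthest out on the neuronal list, r was 0.70, and with each group centred on its own mean it was 0.87. Right control 3 was lowest on that list, at -0.077, and right control 1 highest, at 0.11. On right control 1, Nefl (11.03), Nefm (10.20) and Nefh (9.76) were each at their highest of the 12 arrays. Snap25 (12.39), Syt1 (10.78) and Rbfox3 (9.28) were not. The part of the neurofilament genes in the correlation was not tested. On the left arrays the list stood at 0.012, -0.065 and -0.014 in controls and at -0.050, -0.012 and -0.0017 in deaf rats, so deaf and control arrays overlapped there while those of Gad1 did not. With the 16 markers of inhibitory neurons Gad1 had r = 0.24 (permutation p = 0.458, 0.595 adjusted) and rho = 0.28 (permutation p = 0.379, 0.547 adjusted). Without right control 2 and right deaf 3, r was -0.24. In that list Dlx1 (3.70 to 4.76), Dlx5 (2.98 to 3.92) and Lhx6 (4.37 to 5.21) lay below the overall median of 5.34 on all arrays. They weigh as much in its mean as bright genes such as Sst (9.06 to 9.61). The lower r therefore does not show that Gad1 is unrelated to inhibitory neurons. The part of neuronal content in the Gad1 values was not tested further. In such bulk tissue, fewer cells of a type and less RNA per cell cannot be told apart.

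**Figure D4:**
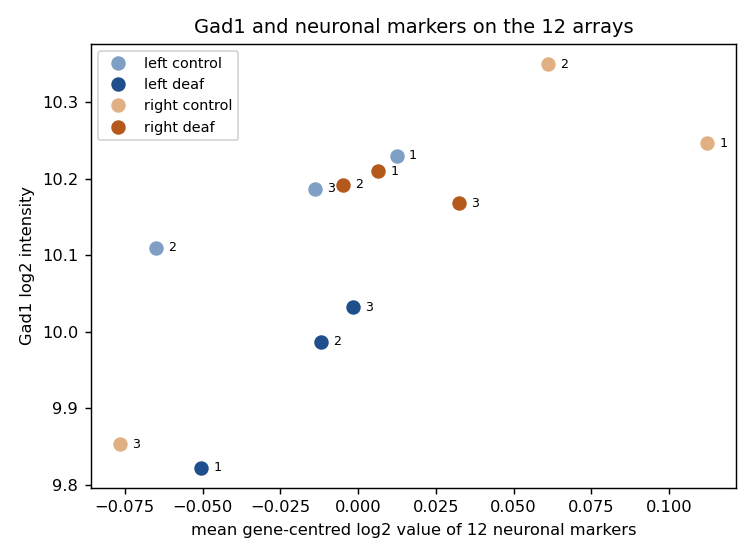
Gad1 log2 intensity (vertical) against the mean of 12 neuronal markers, each taken relative to its own mean (horizontal, log2), for the 12 arrays, coloured by group and numbered by replicate. The arrays rise together (r = 0.73), and the left deaf arrays lie at 9.82 to 10.03 of Gad1.

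No relation with another list reached an adjusted p under 0.05 for the other members. Gad2 and Slc32a1 had r = -0.31 and 0.30 with the neuronal list and r = 0.35 and 0.049 with the 16 markers of inhibitory neurons (adjusted permutation p = 0.552, 0.552, 0.552 and 0.879). Slc6a11 had r = 0.58 with the 11 measured astrocyte markers (permutation p = 0.0486, 0.211 adjusted; rho = 0.53), and 0.18 without left control 2 and right control 3. Abat had r = 0.53 with the neuronal list (0.236 adjusted) and -0.37 with the astrocyte list (0.552 adjusted), and the former was 0.12 without right control 1 and right control 3. The cerebellar list had r = -0.25 with Gad1, 0.095 with Gad2 and 0.17 with Slc32a1 (adjusted permutation p = 0.595, 0.857 and 0.664). With each group centred on its own mean, the cerebellar list had r = -0.76 with Gad1 and -0.57 with Slc32a1, and the neuronal list had r = -0.65 with Gad2 and 0.72 with Abat, so these relations depend on whether differences between groups are kept.

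Cell markers were counted beside the members in the same fit, where 0 genes of any list passed. General neuronal markers had higher means in deaf rats for 6 of 12 on the left and 8 of 12 on the right, with medians of -0.00014 and 0.025. Their mean level ranged from 10.28 to 10.36 in left control, 10.30 to 10.34 in left deaf, 10.27 to 10.46 in right control and 10.34 to 10.38 in right deaf arrays. Markers of inhibitory neurons had higher means for 10 of 16 and lower means for 6 of 16 on each side, with medians of 0.026 and 0.019. Slc6a5, the glycine transporter gene of neurons that can release glycine through the Slc32a1 transporter, was at -0.40 (SE 0.46) on the left and -0.64 (SE 0.46) on the right, and right control 1 alone was at 7.23 against 4.65 to 5.64 on the other 11 arrays. Excitatory markers had lower means for 3 of 6 on the left, with a median of 0.039, and for 4 of 6 on the right, with a median of -0.26 and 3 at an unadjusted p under 0.05. Their mean level was 6.51 to 6.72 in right control against 6.18 to 6.28 in right deaf arrays, without overlap. Among them Slc17a7, another vesicular glutamate transporter gene, was at -1.51 (SE 0.26; limma adjusted p = 1.00) on the right. Slc17a6, the main glutamate transporter gene of IC excitatory neurons, was at -0.11 (SE 0.10) on the left and 0.032 (SE 0.10) on the right. Astrocyte markers had lower means for 9 of 11 on the left and 10 of 11 on the right, with medians of -0.025 and -0.055. Cerebellar markers were lower on the right for 14 of 15, by a median of -0.18, where their mean level was 5.92 to 6.40 in control and 5.71 to 5.76 in deaf arrays, and on the left for 9 of 15, by -0.043. The excitatory and cerebellar lists share Neurod1 and the same arrays, so their lower means on the right are not separate observations. Apart from the cerebellar correlations over the 12 arrays given above, the part of these markers in the values of the GABA genes on the right was not tested.

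The rest of the pathway was taken from a list of 20 genes, of which 15 were measured: transporters, the enzymes that supply glutamate and cofactor, and those that act after Abat. With limma 0 of the 15 rose and 0 fell in any comparison, and 0 had an unadjusted p under 0.05 for deaf minus control. On the left 5 of 15 had higher means in deaf rats and on the right 8 of 15, with medians of -0.017 and 0.013. Aldh5a1, the succinic semialdehyde dehydrogenase gene that follows Abat in GABA breakdown, was at -0.062 (SE 0.078) on the left and -0.069 (SE 0.078) on the right. Slc38a3, a glutamine transporter gene of astrocytes, had a difference of -0.18 (SE 0.11) on the left and 0.059 (SE 0.11) on the right. Pdxk, whose kinase makes the pyridoxal phosphate cofactor that both decarboxylases and the Abat transaminase need, was at 0.16 (SE 0.12) and 0.058 (SE 0.12). Glud1, glutamate dehydrogenase, was at -0.070 (SE 0.071) and 0.013 (SE 0.071), and the glutamine transporter gene of neurons Slc38a1 was at -0.017 and -0.025 (SE 0.078 each).

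The widest intervals among them were those of Slc6a13, which encodes the GABA transporter GAT-2. Its differences were 0.22 (SE 0.27) on the left and -0.056 (SE 0.27) on the right. Without left deaf 2 the left difference turned to -0.046. Its highest arrays were left deaf 2, at 7.12, and right control 1, at 7.01, and its lowest was right deaf 3, at 6.04. Across the 12 arrays it followed the other 15 markers of meninges and fibroblasts, where GAT-2 is known to be present, with r = 0.94 and rho = 0.92 (permutation p = 1e-05, the smallest the permutations can give, and 8e-05; 0.00013 and 0.00104 adjusted over the 13 relations). Without left deaf 2 and right control 1, r was 0.88. In the left IC, 15 of the 16 measured meningeal markers, Slc6a13 among them, had higher means in deaf rats, by a median of 0.27, with mean levels of 6.19 to 6.72 in control and 6.42 to 7.19 in deaf arrays. Without left deaf 2 it was 8 of 16, with a median of 0.057. Slc6a11, the other plasma membrane GABA transporter measured, ranged over 0.21 on the same arrays, and the vesicular transporter gene Slc32a1 over 0.47.

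**Figure D5:**
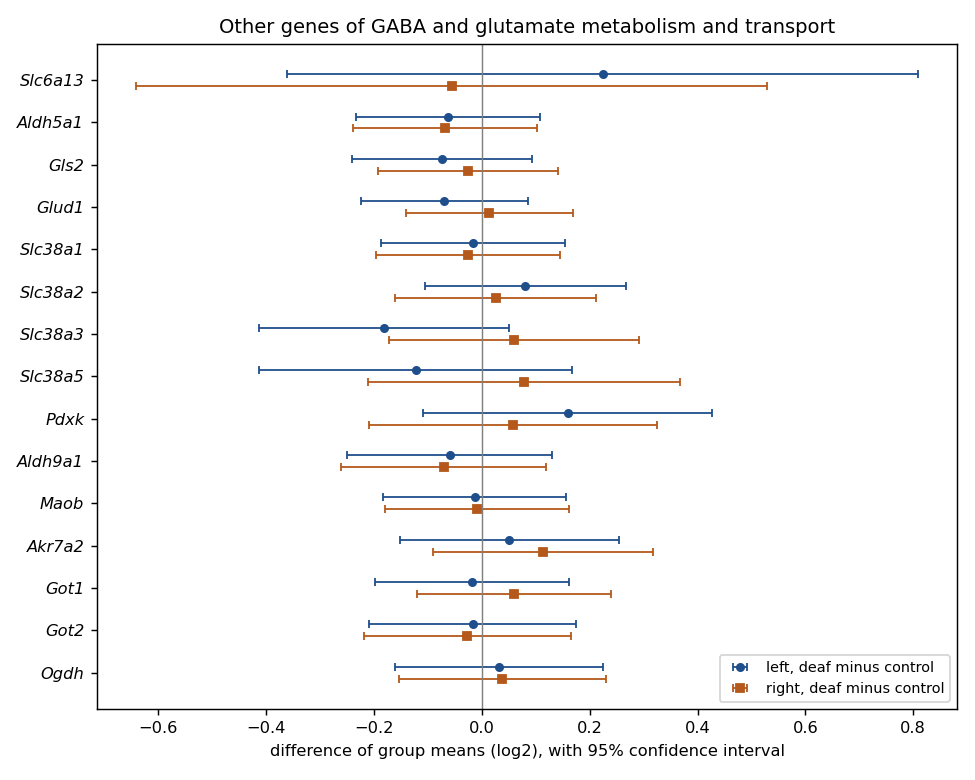
Deaf minus control differences (log2, points) with 95% confidence intervals (bars) in the left and the right IC for the 15 other measured genes of GABA and glutamate metabolism and transport. All intervals include 0, and those of Slc6a13 are the widest.

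Likeness was taken as Pearson r over the 12 arrays with 8938 genes above the median level. Symbols that start with LOC, RGD, Mir, Olr, Vom, Rn or AABR were left out. The genes most like Gad1 were Creb3l2 (0.92), Tnfrsf11b (0.90) and Poglut1 (0.89). Those most like Gad2 were Tomm70 (0.87), Gda (0.86) and Mdga2 (0.86). For Slc32a1 they were Elovl1 (0.88), Ankrd52 (0.81) and Enpp2 (0.80), and for Slc6a11 they were Fam53c (0.90), Tmem39b (0.88) and Rin3 (0.87). For Abat they were Tmem175 (0.93), Ube2b (0.93) and Slit2 (0.92). No member was among the 3 genes most like another member. These values describe 12 arrays that share their normalization, and each is among the 3 highest of 8938 correlations, chosen for that.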

How the data were processed

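Per the labels' protocols, total RNA was extracted with Trizol, and fragmented single-stranded cDNA carrying a biotin label was read on Affymetrix arrays of 1 colour. The authors deposited log2 intensities with nearly the same distribution on each array; no source used here names the summarisation software, the normalization or the genome build. Detection calls were not used. Of 29489 probes, 18511 had 1 symbol, 575 several and 10403 none; the brightest probe of a gene was kept, which left 18166 genes. Symbols come from GEO's platform annotation, and those of all 5 members matched RefSeq by Entrez identifier. Members had 1 probe each, so this choice could not affect them. Limma 3.58.1 in R 4.3.3 was fitted to all 12 arrays with 4 group means and 6 contrasts, with Benjamini-Hochberg adjustment over all genes (threshold 0.05, two-sided; residual degrees of freedom 8, prior 3.79), and was tested on simulated data. The number of arrays limits the precision. Correlations used 100000 permutations. Members and lists were chosen with earlier results of these data known. Named genes were the members, fixed pathway genes, those of smallest p in a list, and the 3 most alike by Pearson r. Others fall outside these where they were not among the smallest p, and were chosen after their values were seen. They are Tfap2d, Tcf7l2, Pax7, Pou4f1, Emx1, Tbr1, Neurod6, Nrgn, Bcl11b, Snap25, Syt1, Rbfox3, Nefl, Nefm, Nefh, Dlx1, Dlx5, Lhx6, Sst, Neurod1, Glud1 and Slc38a1. Alternatives were quantile normalization, median centring, genes above the median level, probe means, array weights, a robust variance trend, a replicate block, fits to the compared groups alone, and leaving out each array.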

Additional observations from a re-analysis of the deposited data

How the results depend on the processing

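The count of members called was 0 in each of the 6 comparisons under each alternative run, and the smallest adjusted p of a member was 0.693. The count over all genes, 0 in the deposited scale, became 1 among genes above the median level and 1 with a variance trend (left, deaf minus control), and 1 and 2 with the same settings for left minus right in deaf rats. With an array left out it ran from 0 to 1 for the left change and from 0 to 1 for the mean of both sides. None of these genes was a member.

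Of 230 member values under the alternatives other than leaving out an array, 225 kept their direction and 5 turned, all with array weights: Gad2 on the left (0.0092), Gad1 and Abat on the right (-0.053 and -0.0093), Gad1 left minus right in controls (-0.053) and Abat left minus right in deaf rats (0.0011). Of 360 values with 1 array left out, 25 turned. The ranges were, for Gad1, -0.11 to 0.14 on the right and -0.12 to 0.13 for left minus right in controls. For Gad2 they were -0.034 to 0.039 on the left, -0.0055 to 0.070 on the right, -0.0061 to 0.039 averaged and -0.076 to 0.0015 for the interaction. For Abat they were -0.047 to 0.045 on the right, -0.044 to 0.0025 averaged, -0.0092 to 0.083 for the sides of control rats, -0.037 to 0.021 for the sides of deaf rats, and -0.085 to 0.0070 for the interaction. For Slc32a1 they were -0.10 to 0.055 for left minus right in deaf rats and -0.027 to 0.13 for the interaction. Gad1 on the left kept its direction, between -0.27 and -0.17. In an alternative chosen after seeing the data, Slc6a13 on the left turned to -0.046 and the meningeal median fell to 0.057 without left deaf 2. The cause of the turns was not tested.

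The labels number the arrays 1 to 3 in each group. Same-numbered arrays correlated by -0.27 to 0.33 in their deviations from the group means, over 0.1 in 4 of 18 pairs. They correlated best with their own number in 6 of 18. Most of these pairs set control against deaf rats, which cannot share an animal. Left and right arrays of one number correlated by 0.19, -0.064 and 0.067 in control rats and by 0.33, 0.082 and 0.071 in deaf rats. These values do not settle whether such arrays share rats, and the main fit took none as pairs. With the replicate block 1 gene was called for left minus right in controls and 1 for the interaction, and 0 members in any comparison.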
